A study of Homo sapiens with 12 samples.

Results

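The states that 2 human embryonal carcinoma lines reached after knock-down of SOX2 were compared across 18404 genes. The comparison used 6 of the 12 arrays of the series, selected by their titles, of which 3 were of NTera-2 cells and 3 of 2102Ep cells given an siRNA against SOX2. These groups are called NTera-2 siSOX2 and 2102Ep siSOX2. The other 6 arrays, 3 of each line, were of cells given the non-targeting Ambion Silencer Select Negative Control #1, and they show how far apart the lines stood without the knock-down. All were single-colour Affymetrix Human Gene 1.0 ST arrays, whose probes lie along the whole transcript.

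Embryonal carcinoma cells are malignant stem cells of germ cell tumours. Of the established lines used here, NTera-2 can differentiate and is called pluripotent, while 2102Ep resists differentiation and is called nullipotent. 2102Ep cells were taken at passages 35 to 50 and NTera-2 cells at passages 40 to 50. Both lines were plated 24 hours ahead, exposed to siRNA for 6 hours and harvested 72 hours later. The siRNA was carried by Lipofectamine 2000 into 2102Ep and by Lipofectamine RNAiMAX into NTera-2, and its amount also differed, so that line, reagent and amount cannot be told apart. A single siRNA against SOX2 was used for these arrays, and no rescue was among them.

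SOX2 is a transcription factor of the SRY-related HMG-box family that, with OCT4 and NANOG, holds stem cells undifferentiated. When pluripotent cells leave this state under Wnt, BMP and Nodal signals, they pass through a primitive streak stage marked by brachyury and MIXL1, from which mesoderm and endoderm arise. When those signals are blocked, by secreted inhibitors such as follistatin, cerberus and the SFRP proteins, they tend towards neural ectoderm, where SOX2 stays on.

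In this text a difference is the mean log2 signal of NTera-2 minus that of 2102Ep, so that a value above 0 means higher in NTera-2, and 1 on this scale is 2-fold. The end-state difference is taken between the siSOX2 groups and the starting difference between the control groups. Their difference, end-state minus starting, is called the change and was tested as an interaction in limma. A gene was called at an adjusted p of 0.05 or less, an unadjusted p of 0.01 or less and a difference of at least 1. Errors of differences are standard errors (SE), with 3 arrays in each group.

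Array medians over genes lay between 7.977 and 8.144, with the highest on NTera-2 siSOX2 replicate 3. Across genes, arrays correlated at 0.9946 to 0.9949 within 2102Ep siSOX2, at 0.9917 to 0.9955 within NTera-2 siSOX2 and at 0.9445 to 0.9534 between these groups. Of 14 markers of embryonal carcinoma and pluripotent cells, 12 were measured by a probe set of a single gene. POU5F1, the gene of OCT4, and NANOG had no such probe set and were not compared. LIN28A, an RNA-binding protein of stem cells, was the brightest in 2102Ep siSOX2 at a mean of 12.91, against 13.11 in NTera-2 siSOX2. Of the 12 only ZFP42, the gene of the pluripotency factor REX1, was called, higher in 2102Ep. It was at 9.33, 9.35 and 9.20 on the 2102Ep siSOX2 arrays and at 5.60, 5.26 and 5.44 on the NTera-2 siSOX2 arrays, and its control means were 9.80 and 5.66.

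SOX2 itself ended far apart in the lines. Its log2 signal was 9.17, 9.30 and 8.80 on the 2102Ep siSOX2 arrays and 11.92, 11.95 and 11.86 on the NTera-2 siSOX2 arrays. The lines did not overlap, and SOX2 was called as falling in 2102Ep (-3.14 against its control). In NTera-2 it also fell (-0.64), but by less than the 2-fold threshold, so it could not be called there. The end-state difference was 2.82 ± 0.117 (95% interval 2.57 to 3.06, adjusted p = 8.96e-12), a 7.05-fold higher signal in NTera-2. The starting difference was 0.33 ± 0.117 and was not called. The end states therefore also differed in how much SOX2 mRNA remained, and for a difference that the controls did not show, line and remaining SOX2 mRNA cannot be told apart. In bulk RNA of this kind, fewer cells of a state and less RNA per cell cannot be told apart either.

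The lines ended with 1407 of 18404 genes called between them, which is 7.65% of the genes tested. NTera-2 was higher in 849 of these (4.61%) and 2102Ep in 558 (3.03%). These shares are the background for the counts of called list members below. The starting difference gave 1429 calls (7.76%), 826 higher in NTera-2 (4.49%) and 603 higher in 2102Ep (3.28%). The change was called in 305 genes (1.66%), in 123 towards NTera-2 (0.668%) and in 182 towards 2102Ep (0.989%). For 53.2% of all genes the arrays of the end states did not overlap, and this held for 1406 of the 1407 called. The largest differences named below were also taken only from non-overlapping genes. Non-overlap of a called gene is therefore given as a description and adds no support. The median end-state difference of all genes was -0.02 and the median SE was 0.121.

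Of the end-state calls, 905 were called in the same direction in the controls. They made up 64.3% of the end-state calls and 63.3% of the starting calls, 570 of them higher in NTera-2 and 335 in 2102Ep. Across all genes the end-state and starting differences correlated at r = 0.8439, a description over genes measured with the same probes in the same lines. The SDs of these differences over genes were 0.587 and 0.586, so the spread between the lines was about as wide after the knock-down as before it. A further 97 differences emerged, being called in the end state and in the change but not in the controls, with 26 higher in NTera-2 and 71 higher in 2102Ep. In 104 genes a starting difference narrowed below the threshold with a called change, 52 from each side, and 2 genes reversed. The remaining 403 end-state calls were called neither in the controls nor in the change, so whether they differ from the starting difference was not resolved.

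**Figure D1:**
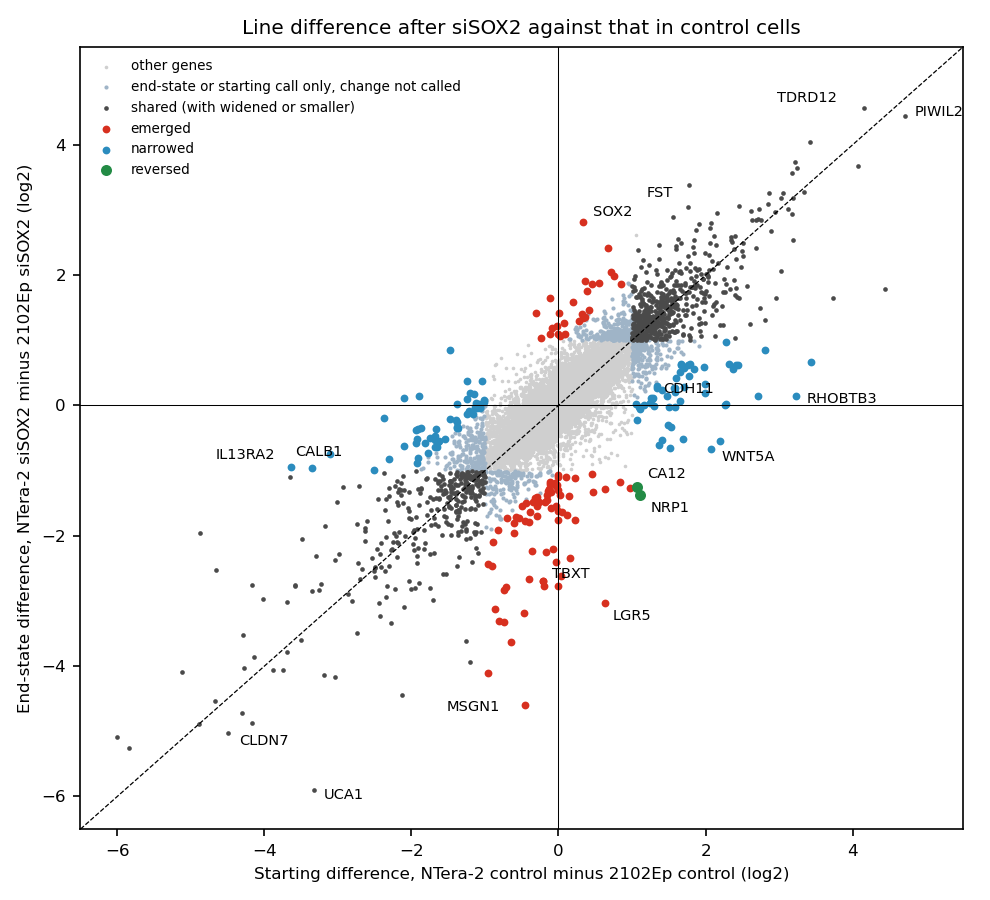
End-state difference (vertical axis, log2) against starting difference (horizontal axis, log2) of each gene, with emerged genes in red, narrowed in blue, reversed in green and shared in dark grey. Points on the dashed line kept their difference. SOX2 stands at 0.33 and 2.82, MSGN1 at -0.45 and -4.59, and RHOBTB3 at 3.23 and 0.14. Genes on the Y chromosome and XIST are not drawn.

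Among genes higher in NTera-2 at the end, a pair of the piRNA pathway, which silences transposons in the germline, led. TDRD12, a Tudor domain protein of the piRNA pathway, was at 10.61, 10.55 and 10.54 on the NTera-2 siSOX2 arrays and at 6.05, 6.23 and 5.73 on the 2102Ep siSOX2 arrays. PIWIL2, a PIWI protein that binds piRNAs, was at 10.05, 9.94 and 10.05 against 5.59, 5.58 and 5.54. Their differences were 4.56 ± 0.126 (adjusted p = 8.03e-14) and 4.44 ± 0.113 (adjusted p = 5.37e-14). The starting differences were 4.16 and 4.71, and the change was called in neither. In a list of 35 germline and piRNA genes, which held PIWIL2 but not TDRD12, 4 were higher in NTera-2 and 1, the meiotic gene HORMAD1 (-4.08), in 2102Ep, with a list median of -0.11. The shares were 11.4% and 2.86%, against 4.61% and 3.03% of all genes. The receptor KIT (2.16), the meiotic recombinase DMC1 (1.79) and the meiotic gene TEX15 (1.42) were the other members on the NTera-2 side. The other PIWI and Tudor genes of the list, from PIWIL1 (0.42) down to TDRD1 (-0.58), were under the threshold. The germline gene GTSF1, not in the list, was among the largest differences on the 2102Ep side.

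The next largest differences on the NTera-2 side were in the cadherin CDH9 (4.04), the neuronal trafficking gene NBEA (3.73), OCIAD2 (3.67), RWDD2B (3.65) and QNG1 (3.56). After these came the deubiquitinase USP44 (3.38), the Wnt inhibitor SFRP1 (3.27), the histone gene H2BC3 (3.26), the synaptotagmin SYT11 (3.26) and the neuroendocrine chaperone SCG5 (3.19). All had adjusted p-values of 7.84e-09 or lower. All 10 were also called in the controls, 9 of them at differences from 2.87 for SYT11 to 4.07 for OCIAD2 and with no called change. USP44 was the exception, with a starting difference of 1.78 and a called change of 1.60 ± 0.222 (adjusted p = 0.000197). Its signal was 10.88, 10.69 and 10.86 on the NTera-2 siSOX2 arrays and 7.48, 7.74 and 7.08 on the 2102Ep siSOX2 arrays, where the control mean had been 9.73.

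On the 2102Ep side the long non-coding RNA UCA1 had the largest difference. It was at 11.84, 11.67 and 11.73 on the 2102Ep siSOX2 arrays and at 5.99, 6.05 and 5.48 on the NTera-2 siSOX2 arrays, a difference of -5.90 ± 0.174 (adjusted p = 1.80e-13). In the controls it was -3.33, and the change of -2.57 was called, so this difference widened. The small nucleolar RNAs SNORD114-3 (-5.25) and SNORD113-4 (-5.09), the tight junction claudin CLDN7 (-5.02), the actin-bundling protein LCP1 (-4.89), the matrix link protein HAPLN1 (-4.87) and the retroviral gene ERVH48-1 (-4.71) followed. The list went on with the presomitic mesoderm factor MSGN1 (-4.59), the germline gene GTSF1 (-4.54), the secreted inhibitor CER1 (-4.44), the early embryonic gene DPPA3 (-4.17) and the stress cytokine GDF15 (-4.14). DPPA3 was measured by 2 probe sets, the other of which differed by -3.59.

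Some large differences were nearly the same in the control and siSOX2 cells. MX2, an interferon-induced GTPase, was at 8.96, 8.89 and 9.12 in NTera-2 siSOX2 and at 5.78, 5.58 and 6.05 in 2102Ep siSOX2, with both differences at 3.19. LCP1 was at 11.33, 11.42 and 11.39 in 2102Ep siSOX2 and at 6.49, 6.30 and 6.67 in NTera-2 siSOX2, with both differences at -4.89. Among shared genes with an end-state difference of at least 3, the others with the smallest changes were SFRP1, H2BC3, SCG5, NKAIN1 (3.01) and the transcriptional cofactor LMO3 (3.09) on the NTera-2 side. On the 2102Ep side they were GTSF1, FAM111B (-3.79), RHBDD1 (-3.60), LINC01446 (-4.05) and EID1 (-4.03). The changes of all 12 lay between -0.17 and 0.24.

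Primitive streak and early mesoderm genes set the end states apart more than any other list here by median. Of 24 measured, 12 were higher in 2102Ep siSOX2, which is 50% against 3.03% of all genes, and 0 in NTera-2 siSOX2, with a median difference of -1.06. In the controls 2 were higher in 2102Ep, TBX3 and MEIS1, and the median was -0.20. The change was called in 9, all towards 2102Ep. The list was written with earlier results of these data known, so its count is a description.

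MSGN1, a bHLH factor of presomitic mesoderm, was at 11.60, 11.57 and 11.31 in 2102Ep siSOX2 and at 6.90, 6.87 and 6.92 in NTera-2 siSOX2. TBXT, the gene of brachyury, was at 10.12, 9.91 and 9.99 against 7.11, 7.29 and 7.29. MIXL1, a homeobox factor of the streak, was at 11.83, 11.92 and 11.90 against 8.92, 9.27 and 9.49. None of the 3 overlapped between the siSOX2 groups, and none was called in the controls, where the differences were -0.45, -0.20 and -0.41. Their end-state differences were -4.59 ± 0.115 (adjusted p = 5.37e-14), -2.78 ± 0.121 (adjusted p = 1.55e-11) and -2.66 ± 0.131 (adjusted p = 6.52e-11). The NTera-2 values were not all at the control level: MIXL1 had risen in that line too (1.17), while TBXT (0.40) and MSGN1 (0.14) were not called there.

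TBX3, a T-box factor of several early lineages, ended at 11.25, 11.21 and 11.29 in 2102Ep and at 7.64, 7.78 and 7.51 in NTera-2. HAND1, a factor of extraembryonic and lateral mesoderm, ended at 11.90, 11.81 and 11.95 against 8.72, 8.78 and 8.81. APLNR, the apelin receptor of early mesoderm, ended at 11.61, 11.40 and 11.76 against 9.14, 9.38 and 9.21. The differences were -3.61, -3.12 and -2.34, again without overlap. HAND1 and APLNR had risen in NTera-2 as well, by 1.76 and 1.42, and stayed below 2102Ep. The other 6 called members were LHX1 (-1.77), the Wnt-responsive factor SP5 (-1.48), GATA2 (-1.43), EVX1 (-1.40), CDX2 (-1.24) and CDX1 (-1.21). EOMES, a T-box factor of mesendoderm, was at -0.53 and GSC, a homeobox factor of the organizer, at -0.19, and neither was called.

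Promoter sequence was looked at for genes that emerged on the 2102Ep side. Promoters of 300 bases, 250 before and 50 after the start, were taken from RefSeq (GRCh38.p14) and matched to 14228 of the genes tested, among them 46 of the 71 emerged genes higher in 2102Ep. They were searched on both strands for the letters CTTTGAA and CTTTGAT, forms of the site that LEF and TCF proteins of the Wnt pathway bind. These letters were chosen after the genes had been seen. A match stood in 8 of the 46 (17.4%), against 788 of all 14228 (5.54%), 28 of 378 end-state genes higher in 2102Ep (7.41%), 36 of 647 higher in NTera-2 (5.56%) and 1 of 22 emerged genes higher in NTera-2 (4.55%). The 8 were MSGN1, NTS, HAND1, MIXL1, EMP1, CCDC141, CDX2 and DKK1. SP5, which did not pass as emerged, held 3 matches. The promoters of 3 of these genes, MSGN1, MIXL1 and SP5, are printed 5′ to 3′ on the strand of the gene, with the matched letters in capitals, because they belong to streak genes that ended far apart. The MSGN1 promoter (chr2:17816210-17816509, plus strand) has its match 85 bases before the start, that of MIXL1 (chr1:226223414-226223713, plus strand) 76 bases before it, and that of SP5 (chr2:170715087-170715386, plus strand) 148, 109 and 84 bases before it. A match is a description of the letters and no evidence of binding. The letters also do not tell a LEF or TCF site from a site of other proteins, so the shares are not a measure of Wnt signalling.
MSGN1 promoter: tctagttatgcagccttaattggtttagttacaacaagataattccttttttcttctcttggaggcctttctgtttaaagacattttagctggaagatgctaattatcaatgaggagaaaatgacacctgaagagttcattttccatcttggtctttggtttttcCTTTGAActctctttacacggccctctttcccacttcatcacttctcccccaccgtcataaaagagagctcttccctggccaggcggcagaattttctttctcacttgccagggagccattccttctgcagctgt
MIXL1 promoter: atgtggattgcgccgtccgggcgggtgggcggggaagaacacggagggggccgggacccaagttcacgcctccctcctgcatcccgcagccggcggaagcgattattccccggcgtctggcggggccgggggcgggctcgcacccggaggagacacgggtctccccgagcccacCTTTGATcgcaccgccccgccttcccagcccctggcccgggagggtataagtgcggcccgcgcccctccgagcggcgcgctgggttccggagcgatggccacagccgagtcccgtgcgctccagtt
SP5 promoter: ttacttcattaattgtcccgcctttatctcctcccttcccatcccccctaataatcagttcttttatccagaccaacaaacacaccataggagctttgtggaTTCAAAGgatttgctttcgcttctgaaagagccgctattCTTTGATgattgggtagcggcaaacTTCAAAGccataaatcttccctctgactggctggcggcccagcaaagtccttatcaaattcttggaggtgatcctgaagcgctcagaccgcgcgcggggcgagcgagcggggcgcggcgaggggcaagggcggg

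**Figure D2:**
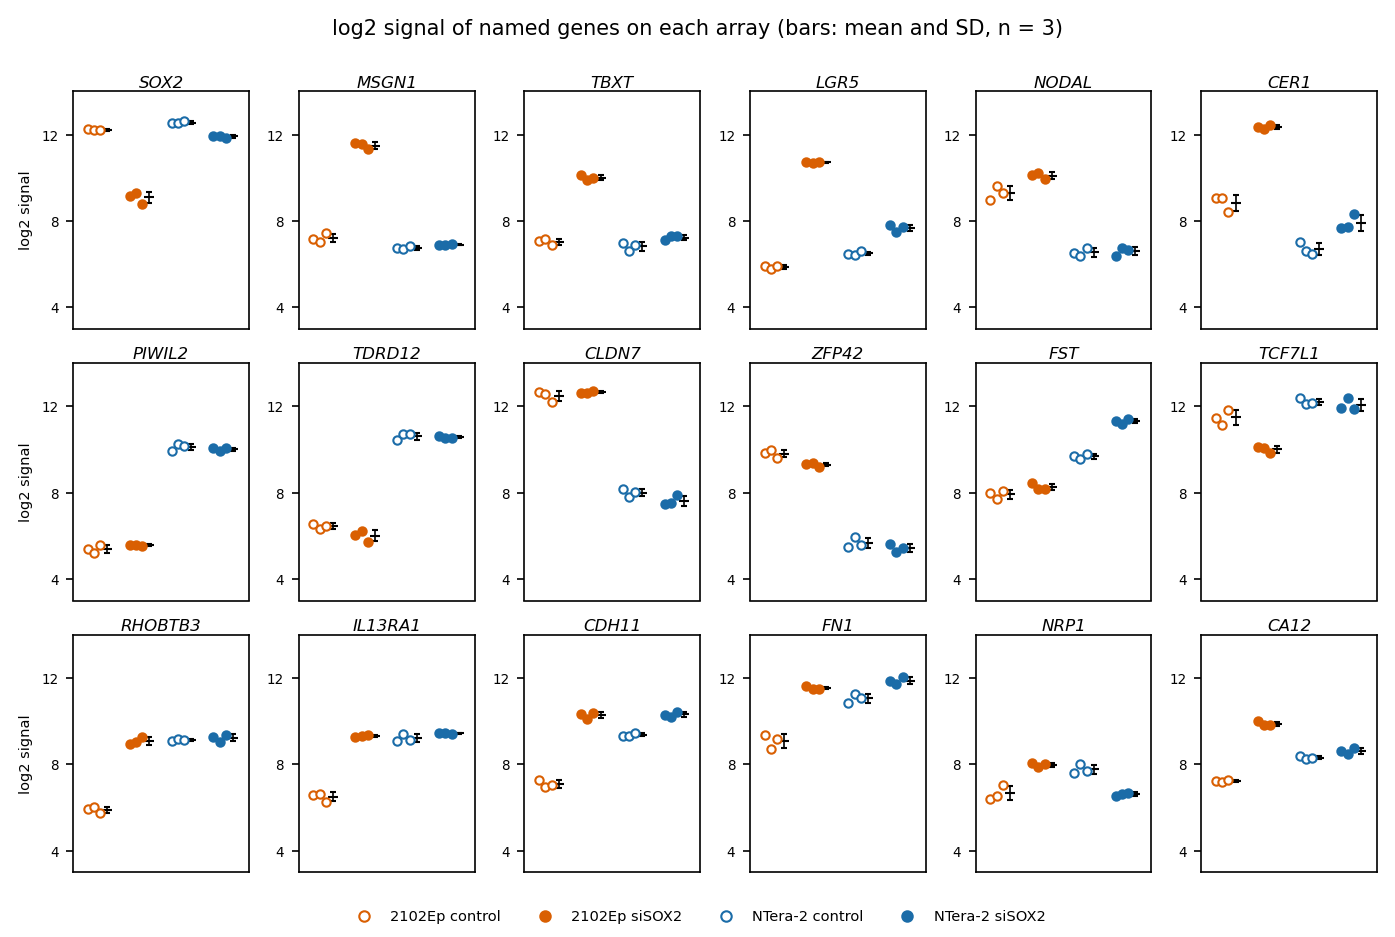
Signal (log2, vertical axes) of 18 genes on each of the 12 arrays, open points for controls and filled points for siSOX2, 2102Ep in orange and NTera-2 in blue, with the mean and SD of each group (n = 3) beside the points. MSGN1, TBXT and LGR5 are far apart only between the filled groups, PIWIL2, TDRD12, CLDN7 and ZFP42 are as far apart between the open groups, and RHOBTB3, IL13RA1 and CDH11 are far apart only between the open groups, with filled differences of 0.14, 0.14 and 0.03.

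Endoderm, trophoblast and amnion, neural crest, and muscle and heart lists had no member higher in NTera-2 siSOX2. Shares higher in 2102Ep siSOX2 were, in that order, 18.8%, 33.3%, 27.8% and 21.4%, against 3.03% of all genes. In the controls 2, 2, 3 and 2 members were called higher in 2102Ep, and 1 neural crest gene in NTera-2. Of 16 endoderm genes 3 were higher in 2102Ep, CER1, the apolipoprotein APOA2 (-2.70) and the transcriptional repressor PRDM1 (-1.40). CER1, which secretes an inhibitor of Nodal, BMP and Wnt, was at 12.35, 12.24 and 12.43 in 2102Ep siSOX2 and at 7.66, 7.72 and 8.31 in NTera-2 siSOX2. Of 18 trophoblast and amnion genes 6 were higher in 2102Ep, including HAND1, the cofactor VGLL1 (-2.83), the transcription factor TFAP2A (-2.69) and the homeobox gene DLX3 (-1.48). Among 18 neural crest genes there were 5, TFAP2A, MSX2 (-1.95), NGFR (-1.59), MITF (-1.26) and EDNRB (-1.24). Among 14 muscle and heart genes there were 3, the stress-responsive ANKRD1 (-3.32), the atrial myosin light chain MYL7 (-2.19) and TBX5 (-1.90), while the muscle markers MYOD1 (-0.11) and MYH7 (-0.10) were not called. CER1, PRDM1, NGFR, EDNRB, TBX5 and MYL7 had already differed in the controls, by -2.13, -1.28, -1.66, -2.22, -1.25 and -1.12. The starting differences of APOA2 (-0.21), VGLL1 (-0.74), TFAP2A (-0.21), DLX3 (-0.34), HAND1 (-0.86), MSX2 (-0.61), MITF (-0.90) and ANKRD1 (-0.74) were under the threshold.

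HOX genes, which pattern the body axis, had calls on the same side. Of 27 measured, 7 were higher in 2102Ep siSOX2 (25.9% against 3.03% of all genes) and 0 in NTera-2 siSOX2, with a median of -0.65. In the controls 2 were higher in 2102Ep, HOXB2 and HOXB1, with a median of -0.35. HOXB2 was at 9.89, 10.11 and 10.18 in 2102Ep siSOX2 and at 6.90, 7.08 and 7.22 in NTera-2 siSOX2, a difference of -2.99 against -2.81 in the controls. HOXA2 was at 7.97, 7.80 and 8.12 against 5.29, 5.50 and 5.71, and here the difference had grown from -0.90 to -2.46 with a called change. HOXB6 (-1.45) also had a called change, while HOXB13 (-1.69), HOXB3 (-1.64), HOXB1 (-1.08) and HOXC5 (-1.03) had none.

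Neural ectoderm genes were the lineage list with calls on the NTera-2 side only. Of 22 measured, 6 were higher in NTera-2 siSOX2 (27.3% against 4.61% of all genes) and 0 in 2102Ep siSOX2, with a median of 0.23. The controls were also called on that side only, with 4 and 0 and a median of -0.02. The change was called in 1, towards NTera-2. MAP2, a neuronal microtubule protein, was at 8.74, 8.43 and 8.91 against 6.66, 6.70 and 6.54, and the LIM homeobox gene LHX2 at a mean of 9.23 ± 0.212 (SD, n = 3) against 7.30 ± 0.29. ZIC2, a zinc finger factor of the neural plate, was at 11.91, 12.04 and 11.91 against 10.31, 10.04 and 10.08. These did not overlap, yet their differences of 2.06, 1.92 and 1.81 were no larger than the 3.02, 2.39 and 1.93 of the controls. Doublecortin (DCX, 1.28), the adhesion molecule NCAM1 (1.16) and LHX5 (1.02) were the others, from starting differences of 0.81, 1.10 and 0.15. The difference of LHX5 was under the threshold on median centring (0.99), without 2102Ep siSOX2 replicate 1 (0.99) and without NTera-2 siSOX2 replicate 3 (0.95). PAX6 (0.35), SOX1 (-0.06) and SOX3 (0.63) were not called.

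Pluripotency genes were split between the lines. Of 26 measured, 6 were higher in 2102Ep siSOX2 (23.1% against 3.03% of all genes) and 3 in NTera-2 siSOX2 (11.5% against 4.61%), with a median of -0.10. DPPA3 was at 12.60, 12.93 and 12.85 in 2102Ep siSOX2 and at 8.62, 8.47 and 8.80 in NTera-2 siSOX2. ZFP42, DPPA2 (-2.12), DPPA5 (-1.96), and the naive-state factors NR5A2 (-1.53) and TFCP2L1 (-1.44) were on the same side. DPPA5 had started further apart, at -4.87, and the change of 2.91 was called. On the NTera-2 side, beside USP44, the forebrain and epiblast factor OTX2 was at 11.60, 11.61 and 11.56 against 9.29, 8.97 and 9.01, a difference of 2.50 that had been 2.06. PRDM14, a repressor that holds the undifferentiated state, was at 8.52, 8.18 and 8.60 against 7.41, 7.31 and 7.22, a difference of 1.12 that had been 0.24 without a called change. In the SOX family without SOX2, SOX15 (-1.49) was higher in 2102Ep and SOX11 (1.24) in NTera-2 of 19 measured.

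**Figure D3:**
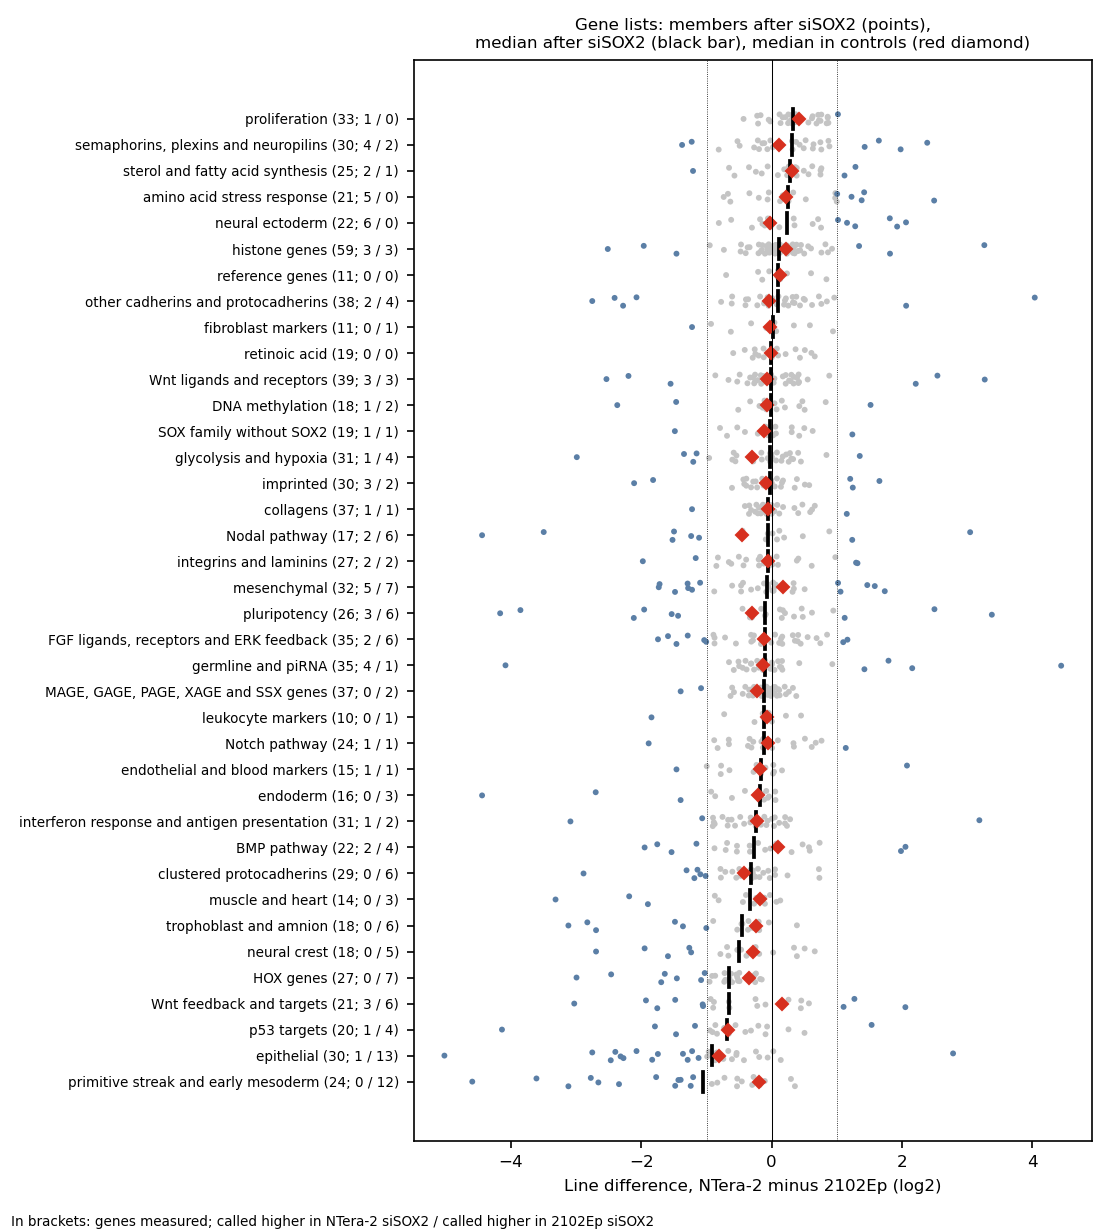
End-state difference (log2, horizontal axis) of each measured member (points, blue from a difference of 1 in either direction) of 38 gene lists (vertical axis), with the list median after siSOX2 as a black bar and in the controls as a red diamond. The streak list lies furthest to the left with a median of -1.06 against -0.20 in the controls, and the epithelial list follows at -0.92 against -0.81.

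Epithelial genes were higher in 2102Ep both before and after. Of 30 measured, 13 were higher in 2102Ep siSOX2 (43.3% against 3.03% of all genes), with a list median of -0.92. In NTera-2 siSOX2 1 was higher (3.33% against 4.61%), the surface glycoprotein PROM1 (2.78). The controls gave 14 and 1 with a median of -0.81. CLDN7 was at 12.63, 12.61 and 12.69 in 2102Ep siSOX2 and at 7.47, 7.52 and 7.87 in NTera-2 siSOX2. CDH1, the gene of E-cadherin, was at 12.10, 12.12 and 11.91 against 9.23, 9.13 and 9.50, a difference of -2.75 that had been -3.58. Its narrowing was not called. CLDN4 (-2.47), the transcription factor GRHL2 (-2.40) and the membrane protease ST14 (-2.32) came next, and CLDN4 and GRHL2 had widened from -1.38 and -1.17 with called changes. The keratin KRT19 (-2.27), P-cadherin (CDH3, -2.07), the splicing factor ESRP2 (-1.83) and the adhesion molecule EPCAM (-1.22) were on the same side.

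Mesenchymal genes moved from the NTera-2 side towards an even split. In the controls 10 of 32 were higher in NTera-2 and 1 in 2102Ep, with a median of 0.17. After the knock-down 5 were higher in NTera-2 (15.6% against 4.61% of all genes) and 7 in 2102Ep (21.9% against 3.03%). The median was -0.07, and the change was called in 11, all towards 2102Ep. Cadherin-11 (CDH11) was at 10.34, 10.11 and 10.38 in 2102Ep siSOX2 and at 10.30, 10.17 and 10.44 in NTera-2 siSOX2, with overlapping arrays and a difference of 0.03 ± 0.116, whereas the controls had differed by 2.27. Fibronectin (FN1) ended at 11.61, 11.49 and 11.49 against 11.84, 11.72 and 12.04, a difference of 0.34 that had been 1.99. SNAI2, a repressor of epithelial genes, ended at 0.51 from 1.66, N-cadherin (CDH2) at -0.61 from 1.36, and the integrins ITGA5 at 0.01 from 1.17 and ITGAV at -0.05 from 1.10. In each of these the change was called, at adjusted p-values from 1.39e-07 (CDH11) to 0.0058 (SNAI2).

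Higher in NTera-2 siSOX2 were the intermediate filament gene VIM (1.74), the E-box repressors ZEB1 (1.58) and ZEB2 (1.47), the fibrillin FBN1 (1.06) and the collagen crosslinker LOX (1.02). LOX, at 0.86 in the controls, had not been called there. VIM was at 11.43, 11.38 and 11.33 in NTera-2 siSOX2 and at 9.80, 9.71 and 9.43 in 2102Ep siSOX2. On the 2102Ep side were the metalloproteinases MMP9 (-1.73), MMP2 (-1.28) and MMP14 (-1.10), the hyaluronan synthase HAS2 (-1.72), SNAI1 (-1.48), smooth muscle actin ACTA2 (-1.29) and COL1A2 (-1.22). SNAI1, like SNAI2 a repressor of epithelial genes, was at 10.61, 10.28 and 10.41 in 2102Ep siSOX2 and at 8.75, 9.11 and 8.99 in NTera-2 siSOX2, from a starting difference of -0.18. Of the fibroblast markers, 11 measured, COL1A2 was the only call, and the list median was 7.24 in 2102Ep siSOX2 and 7.16 in NTera-2 siSOX2. The leukocyte list had 1 call of 10, the T-cell receptor subunit CD3D (-1.84), with PTPRC at -0.10 and medians of 6.20 and 6.19. The endothelial and blood list had 1 on each side of 15, the receptor TEK (2.08) and the embryonic globin HBE1 (-1.46), with PECAM1 at -0.65.

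Wnt signalling genes were called on both sides, with inhibitors on each. Higher in 2102Ep siSOX2 were 3 ligands and most of the called feedback genes, among them the inhibitors NKD1, NOTUM and DKK1. Higher in NTera-2 siSOX2 were the inhibitors SFRP1, FRZB and TCF7L1, the receptors FZD3 and FZD7, and SP8. Among 39 ligands and receptors 3 were called on each side, 7.69% against 4.61% of all genes for NTera-2 and 3.03% for 2102Ep. In the controls 8 were called on the NTera-2 side and 1 on the 2102Ep side. The ligand WNT3 was at 10.64, 10.72 and 10.48 in 2102Ep siSOX2 and at 8.05, 7.88 and 8.31 in NTera-2 siSOX2, and the ligand WNT8A at 9.29, 9.22 and 9.36 against 6.96, 7.11 and 7.20. Both were apart without overlap, WNT3 (-2.54) as in the controls (-2.36) and WNT8A (-2.20) newly, from -0.08 with a called change. WNT5B, a ligand of the non-canonical branch, was at -1.55. The antagonist SFRP1 was at 11.62, 11.46 and 11.34 in NTera-2 siSOX2 and at 8.42, 8.11 and 8.08 in 2102Ep siSOX2, and its relative FRZB at 8.69, 8.62 and 8.33 against 6.08, 5.95 and 5.98. Their differences of 3.27 and 2.54 had been 3.34 and 1.84, and the receptor FZD3 was at 2.21 from 2.09.

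Of 21 Wnt feedback genes and targets, 6 were higher in 2102Ep siSOX2 (28.6% against 3.03% of all genes) and 3 in NTera-2 siSOX2 (14.3% against 4.61%). The median was -0.65, against 0.16 in the controls, where the counts were 1 and 3. LGR5, a receptor for R-spondins and a Wnt target, was at 10.74, 10.67 and 10.72 in 2102Ep siSOX2 and at 7.79, 7.50 and 7.74 in NTera-2 siSOX2. Its difference of -3.03 ± 0.104 (adjusted p = 8.10e-13) had been 0.63 in the controls, the opposite sign, though under the threshold. The ubiquitin ligase RNF43 (-1.93), the feedback inhibitors NKD1 (-1.76), NOTUM (-1.06) and DKK1 (-1.05), and SP5 were on the same side. DKK1 ended high in both, at 10.00, 9.85 and 9.92 in 2102Ep siSOX2 and at 9.03, 8.96 and 8.62 in NTera-2 siSOX2, from control means of 5.65 and 6.10. The transcriptional repressor TCF7L1 (2.05), the receptor FZD7 (1.27) and SP8 (1.10) were higher in NTera-2 siSOX2, and all 3 had emerged. LEF1, the Wnt effector, ended at -0.66 from 1.52 with a called change.

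BMP pathway genes had calls on both sides. Of 22 measured, 4 were higher in 2102Ep siSOX2 (18.2% against 3.03% of all genes) and 2 in NTera-2 siSOX2 (9.09% against 4.61%). The median was -0.27 against 0.10 in the controls. The ligand BMP2 was at 10.33, 10.13 and 10.38 in 2102Ep siSOX2 and at 8.47, 8.66 and 8.45 in NTera-2 siSOX2, a difference of -1.76 where the controls had equal means of 7.36. The target MSX2 (-1.95), the extracellular modulator BMPER (-1.54) and the ligand BMP4 (-1.15) were on that side. The antagonists GREM1 (1.98) and CHRDL1 (2.05) were on the other, while the antagonists NOG (0.58) and CHRD (-0.21) were not called. GREM1, the gene of gremlin, was at 9.75, 9.82 and 9.59 in NTera-2 siSOX2 and at 8.03, 7.75 and 7.44 in 2102Ep siSOX2, and its starting difference of 0.76 had grown with a called change.

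Of 17 Nodal pathway genes, 6 were higher in 2102Ep siSOX2 (35.3% against 3.03% of all genes) and 2 in NTera-2 siSOX2 (11.8% against 4.61%). The controls gave 3 and 2. The ligand NODAL was at 10.14, 10.24 and 9.94 in 2102Ep siSOX2 and at 6.39, 6.75 and 6.68 in NTera-2 siSOX2, a difference of -3.50 ± 0.152 that had been -2.74. CER1, the feedback inhibitors LEFTY2 (-1.50) and LEFTY1 (-1.11), the cofactor FOXH1 (-1.52) and the convertase FURIN (-1.24) were on the same side. Follistatin (FST), which binds activins, was at 11.32, 11.20 and 11.41 in NTera-2 siSOX2 and at 8.43, 8.18 and 8.18 in 2102Ep siSOX2. Its difference of 3.05 ± 0.12 had widened from 1.76 with a called change of 1.29. The activin receptor ACVR2A was at 1.24.

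**Figure D4:**
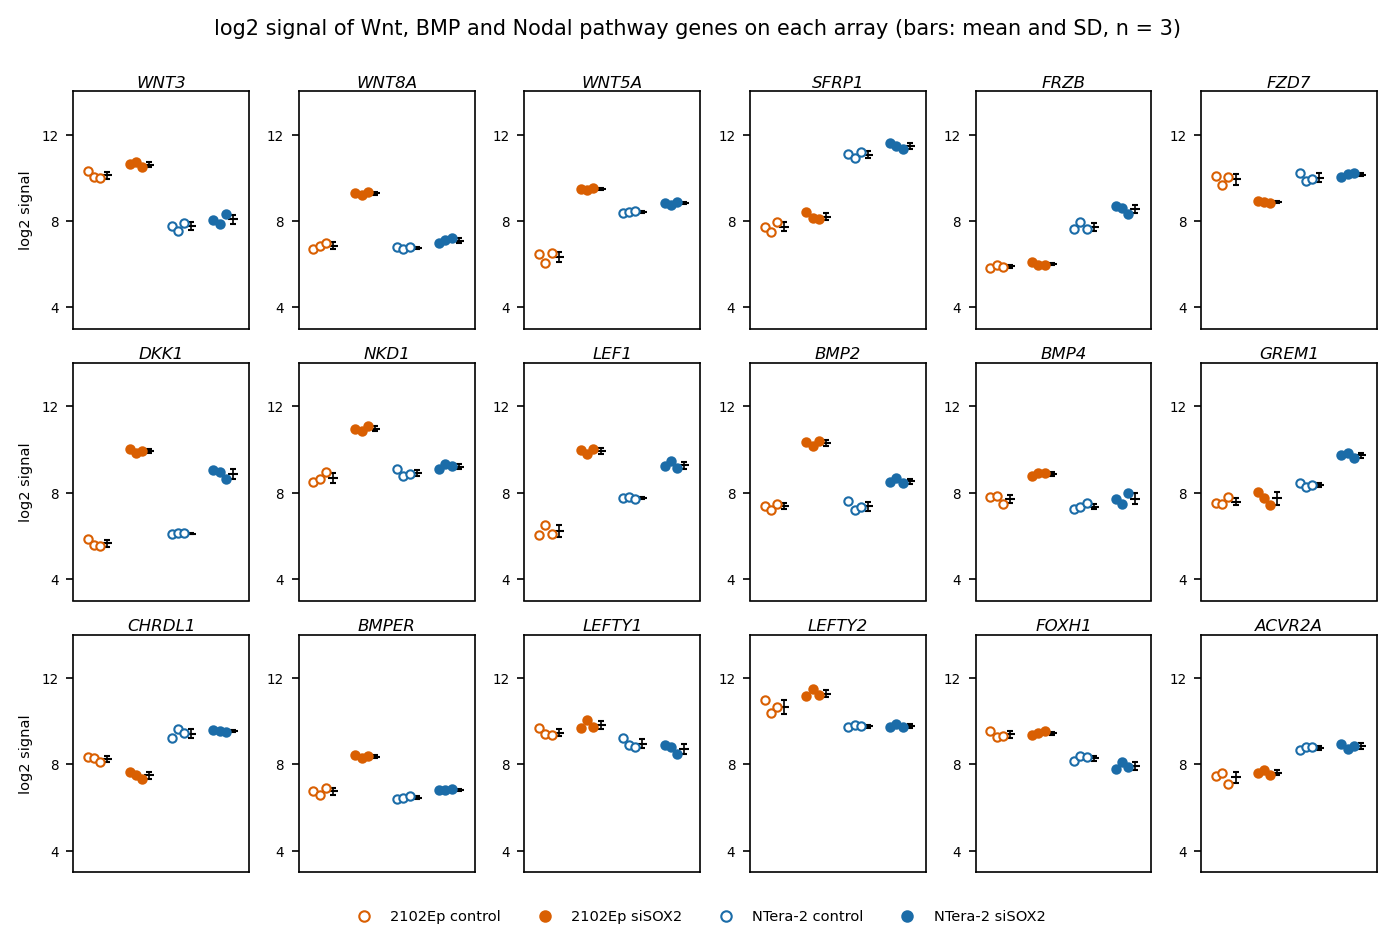
Signal (log2, vertical axes) of 18 genes of the Wnt, BMP and Nodal pathways on each of the 12 arrays, marked as in the plot of named genes by array. In the filled groups WNT3, WNT8A, NKD1, BMP2, BMP4, BMPER, LEFTY1, LEFTY2 and FOXH1 are higher in 2102Ep, and SFRP1, FRZB, FZD7, GREM1, CHRDL1 and ACVR2A are higher in NTera-2.

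Among 35 FGF ligands, receptors and genes of ERK feedback, 6 were higher in 2102Ep siSOX2 (17.1% against 3.03% of all genes) and 2 in NTera-2 siSOX2 (5.71% against 4.61%). The ERK inhibitor SPRY4 (-1.74), the intracellular FGF homologous factor FGF13 (-1.59), the ligands FGF1 (-1.46) and FGF18 (-1.04), IER3 (-1.29) and the ERK-responsive factor ETV4 (-1.01) were on the 2102Ep side, and the receptors FGFR1 (1.16) and FGFR2 (1.10) on the NTera-2 side. Of 24 Notch genes the ligand DLL3 (-1.89) was higher in 2102Ep and the effector RBPJ (1.14) in NTera-2, together 8.33%, near the 7.65% of all genes. The second probe set of RBPJ was at 0.75. None of 19 retinoic acid genes was called between the end states, at a median of -0.01. In the controls 3 had been higher in NTera-2, RARG (1.15), CYP26A1 (1.00) and LRAT (1.33), which ended at 0.51, 0.61 and 0.37. At an adjusted p of 0.05 without the fold, all 3 were still apart.

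Genes that emerged on the 2102Ep side numbered 71, of which 61 were called as rising in 2102Ep, 6 as rising and 4 as falling in NTera-2, and 7 in neither line. Besides MSGN1, HAND1 and LGR5, the largest were the protease inhibitor CST1 (-4.10), the focal adhesion protein TNS4 (-3.62), ANKRD1, the adaptor SKAP2 (-3.31) and neurotensin (NTS, -3.19). SKAP2 was at 9.39, 9.34 and 9.42 in 2102Ep siSOX2 and at 6.03, 6.13 and 6.08 in NTera-2 siSOX2. NTS was at 11.84, 12.10 and 12.17 against 8.80, 8.65 and 9.09, having risen in 2102Ep (1.46) and fallen in NTera-2 (-1.26). Arrays of the lines did not overlap for any of these 8 genes.

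On the NTera-2 side 26 genes emerged, of which 16 were called as falling in 2102Ep, 4 as rising in NTera-2 and 6 in neither line. SOX2 was the largest. SERPINF1, which secretes the antiangiogenic factor PEDF, was at 9.01, 9.16 and 9.20 in NTera-2 siSOX2 and at 6.67, 6.73 and 6.72 in 2102Ep siSOX2, a difference of 2.42 ± 0.122 (adjusted p = 8.78e-11) from 0.68. TCF7L1, GREM1, CDCA7L (1.91), the synaptic pseudokinase CAMKV (1.89), the sialyltransferase ST8SIA3 (1.86) and C1orf21 (1.86) came after it. The change of C1orf21, 1.01, lay at the threshold and was under it on median centring (0.98), with array weights (0.96) and without any of 4 single arrays (0.91 to 1.00), 2102Ep control replicate 2, 2102Ep siSOX2 replicate 1, NTera-2 control replicate 1 and NTera-2 siSOX2 replicate 2.

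In the 104 narrowed genes the lines converged. Of the 52 that had been higher in NTera-2, 35 were called as rising in 2102Ep and 11 as falling in NTera-2. RHOBTB3 was at 8.95, 9.01 and 9.27 in 2102Ep siSOX2 and at 9.26, 9.04 and 9.35 in NTera-2 siSOX2, overlapping, at 0.14 ± 0.117 from 3.23. The interleukin receptor chain IL13RA1 was at 9.25, 9.29 and 9.34 against 9.43, 9.45 and 9.42, at 0.14 from 2.71, with NTera-2 still higher on every array. The deubiquitinase USP3 ended at 0.66 from 3.43, the ERK phosphatase DUSP6 at -0.55 from 2.20 and the ligand WNT5A at -0.66 from 2.07. TM4SF18 ended at 0.01 from 2.27 because it fell in NTera-2 (-2.24) and not in 2102Ep (0.02). For RHOBTB3, IL13RA1, USP3 and WNT5A the called move was a rise in 2102Ep, and for DUSP6 both lines moved.

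Of the 52 that had been higher in 2102Ep, 34 were called as falling in 2102Ep, 3 as rising in NTera-2 and 16 in neither line. The decoy receptor IL13RA2 was at 4.33, 4.30 and 4.31 in 2102Ep siSOX2 and at 3.22, 3.38 and 3.50 in NTera-2 siSOX2, a difference of -0.95 that had been -3.64. The calcium-binding protein CALB1 ended at -0.97 from -3.36, the neuropeptide Y receptor NPY1R at -0.75 from -3.11 and the C-type lectins CLEC6A at -0.19 from -2.38 and CLEC4D at 0.11 from -2.10. PYGM, muscle glycogen phosphorylase, ended on the other side, at 0.85 from -1.48. IL13RA2 and CALB1 lay close to the threshold. IL13RA2 was past it with array weights (-1.01) and without NTera-2 siSOX2 replicate 3 (-1.01), and CALB1 with a further quantile normalization (-1.02) and without 2102Ep siSOX2 replicate 1 (-1.08), NTera-2 siSOX2 replicate 1 (-1.04) or NTera-2 siSOX2 replicate 3 (-1.05).

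The 2 reversed genes were called in both conditions with opposite signs. NRP1, a co-receptor for semaphorins and VEGF, was at 8.05, 7.88 and 8.02 in 2102Ep siSOX2 and at 6.52, 6.63 and 6.68 in NTera-2 siSOX2, a difference of -1.37 from 1.11. CA12, a carbonic anhydrase, was at 9.99, 9.81 and 9.80 against 8.62, 8.48 and 8.77, a difference of -1.25 from 1.07. NRP1 rose in 2102Ep and fell in NTera-2, while CA12 rose in 2102Ep alone past the threshold. Of the 30 semaphorins, plexins and neuropilins, NRP1 and SEMA3D (-1.23) were higher in 2102Ep siSOX2, and SEMA6D (2.39), SEMA5B (1.98), SEMA3A (1.64) and PLXNC1 (1.43) in NTera-2 siSOX2. These were 6.67% and 13.3% of the list, against 3.03% and 4.61% of all genes.

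Small RNAs of an imprinted region were among the largest differences. Of 176 small nucleolar RNAs, 11 were higher in 2102Ep siSOX2 (6.25% against 3.03% of all genes) and 3 in NTera-2 siSOX2 (1.7% against 4.61%). Of the 11, 5 were of the SNORD113 and SNORD114 clusters, which lie on chromosome 14 in the imprinted region of MEG3. SNORD114-3 was at 10.71, 10.53 and 10.65 in 2102Ep siSOX2 and at 5.39, 4.96 and 5.78 in NTera-2 siSOX2, and MEG3 at 9.10, 9.07 and 8.95 against 6.85, 7.13 and 6.80. Their starting differences were -5.84 and -2.19, and the change was called in neither. On chromosome 7 the imprinted neighbours PEG10 (1.65) and SGCE (1.24) were higher in NTera-2 siSOX2.

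Of 173 microRNA precursors measured, 164 matched a mature RefSeq sequence (GRCh38.p14) and 6 were called between the end states, 3.47% against 7.65% of all genes. An array probe set of a precursor reads longer RNA that holds it, and the mature microRNA was not measured on these arrays. The study profiled mature microRNAs separately by qRT-PCR, and those values were not used here. For each of the 6, 1 of its mature strands is printed, the arm usually taken as the dominant one, with the seed, bases 2 to 8, in capitals, so that their families can be compared. No pair of the strands shown shares a seed. MIR200C, whose family is known to repress ZEB1 and ZEB2, was at 7.22, 6.93 and 7.25 in 2102Ep siSOX2 and at 5.77, 6.07 and 5.53 in NTera-2 siSOX2, a difference of -1.34 ± 0.15 (adjusted p = 1.51e-06) that had been -1.43. MIR302A, of a cluster abundant in pluripotent cells, was at 9.23, 9.31 and 9.29 against 10.59, 10.67 and 10.01, a difference of 1.15 from 0.33 with no called change. MIR503 (-1.11) and MIR301A (-1.07) were higher in 2102Ep siSOX2, and MIRLET7I (1.02) and MIR32 (1.00) in NTera-2 siSOX2. MIR32, at 1.002, lay closest to the threshold, and its values under the alternatives are not given. MIR503 lost its call without 2102Ep siSOX2 replicate 3 (-0.995), and MIRLET7I on median centring (0.996), a further quantile normalization (0.954), with array weights (0.961) and without 2102Ep siSOX2 replicate 2 (0.974), NTera-2 siSOX2 replicate 2 (0.998) or NTera-2 siSOX2 replicate 3 (0.984).
hsa-miR-200c-3p: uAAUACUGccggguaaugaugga
hsa-miR-302a-3p: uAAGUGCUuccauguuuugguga
hsa-miR-503-5p: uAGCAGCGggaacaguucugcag
hsa-miR-301a-3p: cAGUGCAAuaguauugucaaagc
hsa-let-7i-5p: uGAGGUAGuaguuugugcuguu
hsa-miR-32-5p: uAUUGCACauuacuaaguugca

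Among the other lists, amino acid stress response genes had 5 of 21 higher in NTera-2 siSOX2 (23.8% against 4.61% of all genes) and 0 in 2102Ep siSOX2. They were led by the lipoprotein receptor VLDLR (2.49) and the cystine transporter SLC7A11 (1.42). In the controls 3 were higher in NTera-2 and 1 in 2102Ep, and the change was called in 1, towards NTera-2. Of 20 p53 targets 4 were higher in 2102Ep siSOX2 (20% against 3.03% of all genes), GDF15, SFN (-1.79), FAS (-1.47) and BAX (-1.18). In NTera-2 siSOX2 1 was higher (5% against 4.61%), the death receptor TNFRSF10B (1.53). In the controls 3 p53 targets were higher in 2102Ep and 2 in NTera-2, and no change was called. The list median was -0.66 there and -0.69 after siSOX2. GDF15, SFN, FAS, BAX and TNFRSF10B had started at -3.19, -1.29, -0.66, -0.98 and 1.81. GDF15 was at 11.92, 11.93 and 11.79 in 2102Ep siSOX2 and at 7.59, 7.69 and 7.94 in NTera-2 siSOX2. In the interferon response list, 31 measured, IFIT1 (-3.09) and TAP1 (-1.07, but -0.98 without 2102Ep siSOX2 replicate 1) were on the 2102Ep side and MX2 on the NTera-2 side. Together these calls were 9.68% of the list, near the 7.65% of all genes. The controls also gave 2 on the 2102Ep side and 1 on the NTera-2 side. Glycolysis and hypoxia genes gave 4 of 31 on the 2102Ep side (12.9%), including the glucose transporter SLC2A1 (-1.35), and 1 on the NTera-2 side (3.23%), PDK1 (1.35). In the controls these counts were 5 and 1. The adenylate kinase AK4 (-2.99) was also in that list, but its second probe set was at -0.65, so the size of its difference is uncertain.

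Proliferation genes gave 1 call of 33, CENPF (1.02), and the 11 reference genes gave 0 calls, with a median of 0.10. Among 29 clustered protocadherins 6 were higher in 2102Ep siSOX2 (20.7% against 3.03% of all genes) and 0 in NTera-2 siSOX2, led by PCDHA2 (-2.89). In the controls 7 were higher in 2102Ep and 0 in NTera-2, and no change was called. Protocadherins of a cluster share sequence, and the second probe set of PCDHA2 was at -1.10. Of 480 ZNF zinc finger genes, 21 were higher in NTera-2 siSOX2 (4.38% against 4.61% of all genes) and 5 in 2102Ep siSOX2 (1.04% against 3.03%), with the largest in ZNF486 (2.43) and ZNF204P (-2.77). Of 368 solute carriers, 23 were higher in NTera-2 siSOX2 (6.25%) and 11 in 2102Ep siSOX2 (2.99%), near the shares of all genes. SLC25A38, a mitochondrial glycine carrier, was the furthest apart on the NTera-2 side (2.99) and the sodium-coupled sugar transporter SLC5A9 on the other (-2.85).

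The called genes were unevenly spread over chromosomes. Of 316 genes on chromosome 13, 78 were higher in NTera-2 siSOX2 (24.7%) and 8 in 2102Ep siSOX2, and among the 169 of these whose highest group mean was at least 8 the median difference was 0.85, against 0.78 in the controls. Chromosome 8 gave 72 of 639 (11.3%) and chromosome 7 gave 81 of 833 (9.72%) on the NTera-2 side. On the 2102Ep side chromosome X gave 49 of 694 (7.06%) and chromosome 17 gave 52 of 1067 (4.87%), with medians of -0.24 and -0.34 among genes with such a mean, against -0.28 and -0.36 in the controls. DNA copy number was not measured on these arrays, and its part in these values was not tested.

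**Figure D5:**
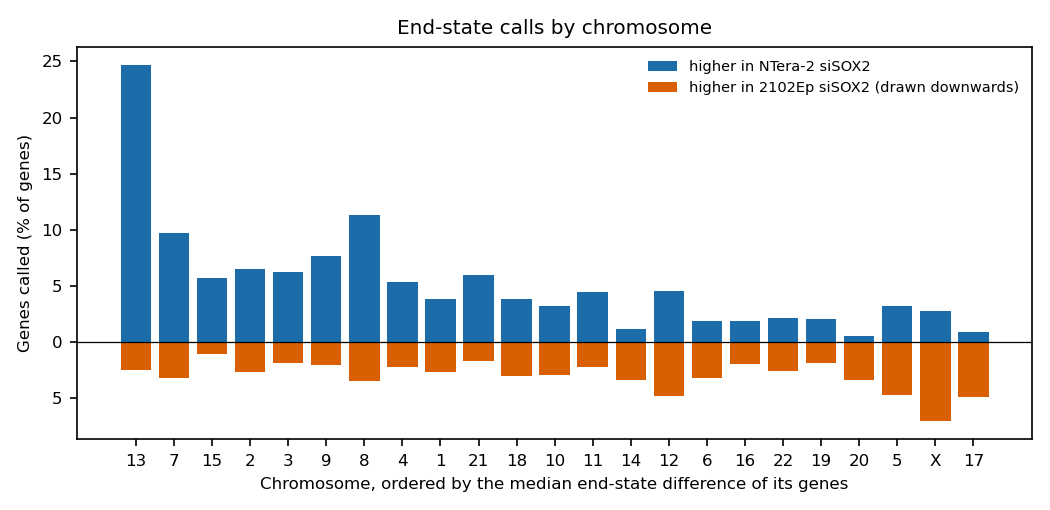
Share of the genes of each chromosome (horizontal axis, ordered by the median end-state difference) called higher in NTera-2 siSOX2 (blue, upwards) or in 2102Ep siSOX2 (orange, downwards), in percent of its genes. Chromosome 13 stands out at 24.7% upwards and 2.53% downwards, and chromosome X has the largest share downwards at 7.06%.

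Probe sets with several genes or none, 13163 in all, gave 421 calls higher in NTera-2 siSOX2 and 189 higher in 2102Ep siSOX2, together 4.63%, and are not named.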

How the data were processed

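Total RNA of 12 samples was measured on single-colour arrays. Per the methods, robust multi-array average (background correction, quantile normalization and median polish) was run by the authors in the manufacturer's software (version not given in the sources used) to make the deposited values. The deposited values were taken as log2 intensities from their range of 1.57 to 14.98. The submitters' notes list limma, with no version given.

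Of 32321 probe sets, 19158 had 1 gene, 1388 several and 11775 none in the platform annotation. For each of 18404 genes the single-gene probe set of highest mean, taken over all 12 arrays, was kept, 637 genes having several, and 18376 symbols were updated through RefSeq. One limma fit (version 3.58.1, R 4.3.3) over the 4 groups of 3 gave every contrast, with Benjamini-Hochberg adjustment over all genes. Labels call the replicates biological. An exact permutation test of 3 against 3 cannot go below p = 0.1 and was not used. On simulated data of 18404 genes, the fit recovered 100 of 100 at a log2 change of 1.5 and 100 of 100 at 3, with 0 false calls. Both planted changes lay above the threshold of 1. This checked the code only and does not speak to calls near the threshold.

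The groups, 44 gene lists, motif letters and named genes were chosen with earlier results of these data known. Named were SOX2, the 12 largest non-overlapping end-state differences each way, the 8 largest emerged and 6 narrowed and 6 steadiest shared genes each way, reversed genes, and up to 4 members of each list by adjusted p. Other list members were named after their values were seen. Genes on the Y chromosome and XIST are not named. Alternatives tried were a replicate block, 2-group fits, median centring, quantile normalization again, array weights, a trended robust prior, mean probe sets, a filter on dim genes, other fold thresholds and leaving out each array.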

Additional observations from a re-analysis of the deposited data

Results flagged for a closer look

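The differences below stood out because the line difference after the knock-down departed from that in the controls, by a called interaction in limma. Values are the change (log2), above 0 where NTera-2 gained on 2102Ep. No cause was tested.

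Among genes that emerged on the NTera-2 side, the change was 2.49 for SOX2, 1.74 for SERPINF1, 1.34 for TCF7L1, 1.22 for GREM1, 1.56 for CDCA7L, 1.33 for CAMKV, 1.41 for ST8SIA3 and 1.01 for C1orf21. Among those that emerged on the 2102Ep side, it was -4.14 for MSGN1, -3.15 for CST1, -2.98 for TNS4, -2.57 for ANKRD1, -2.50 for SKAP2, -2.72 for NTS, -2.26 for HAND1 and -3.66 for LGR5.

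Of the narrowed genes that NTera-2 had led, RHOBTB3 changed by -3.09, USP3 by -2.77, DUSP6 by -2.75, WNT5A by -2.73, IL13RA1 by -2.57 and TM4SF18 by -2.26. Of those that 2102Ep had led, IL13RA2 changed by 2.70, CALB1 by 2.39, NPY1R by 2.36, PYGM by 2.33, CLEC4D by 2.21 and CLEC6A by 2.19. The change was -2.31 for CA12 and -2.48 for NRP1, the reversed pair.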

How the results depend on the processing

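The fold threshold and the filter on dim genes moved the counts by over 1.5 times, since they change which genes can be called. In the order of no fold threshold, a 4-fold threshold, limma's treat against a log2 difference of 1 and leaving out genes below the median signal, end-state calls went from 1407 to 6866, 208, 511 and 818. Those higher in NTera-2 went from 849 to 3881, 91, 278 and 535, and those higher in 2102Ep from 558 to 2985, 117, 233 and 283. Starting calls went from 1429 to 6900, 211, 512 and 866, and calls of the change from 305 to 957, 50, 54 and 166. Shared genes went from 905 to 4988, 119, 291 and 544, emerged from 97 to 272, 23, 25 and 47, and narrowed from 104 to 273, 16, 18 and 61. The other alternatives left these counts within 1.5 times.

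With the replicate block there were 1407 end-state calls, the same genes, and 307 calls of the change. Deviations of same-numbered arrays correlated at -0.377 to -0.126 between the siSOX2 groups and at -0.316 to 0.268 between the controls, so the numbers were not taken as pairs. Leaving out 1 array gave 1358 to 1540 end-state calls, 756 to 977 higher in NTera-2 and 542 to 611 higher in 2102Ep. It gave 1388 to 1520 starting calls, 297 to 331 of the change, 863 to 929 shared, 95 to 108 emerged and 99 to 117 narrowed genes, and a SOX2 difference of 2.67 to 2.92.

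Of 4194 values of named genes under the alternatives, 3959 kept their direction and side of the threshold, 170 lost a call (142 of these under the fold settings), 59 gained one and 6 changed sign. The sign changes were of uncalled differences near 0. CLEC4D ranged from -0.0306 (without NTera-2 siSOX2 replicate 3) to 0.291 (without NTera-2 siSOX2 replicate 2) when 1 array was left out, and TM4SF18 from -0.104 to 0.165 without the same arrays, with -0.0215 on median centring. Of 396 list medians under the alternatives, 25 changed sign and 26 moved by more than the spread between arrays, 19 of these on leaving out genes below the median signal. The sign changed in 10 lists, all with medians between -0.121 and 0.022, namely pluripotency, Wnt ligands and receptors, Notch, retinoic acid, imprinted, DNA methylation, fibroblast markers, SOX family, solute carriers and ribosomal proteins, so their medians have no settled direction. The mesenchymal median kept its sign and ranged from -0.316 without the dim genes to -0.0488. With 3 arrays a group, the number of arrays limits the precision, and dim probe sets understate differences.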

Other observations

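Genes of DNA methylation and its reversal differed in single members of 18 measured. DNMT3L, a cofactor of de novo methylation, was higher in 2102Ep siSOX2 (-2.37, from -3.03), as was the cytidine deaminase APOBEC3B (-1.47), while the demethylating enzyme TET2 was higher in NTera-2 siSOX2 (1.52, from 1.58). Among 59 histone genes 3 were called on each side, together 10.2% against 7.65% of all genes, with H2BC3 (3.26) and H1-1 (-2.51) furthest apart. Of 27 integrins and laminins, ITGA9 (-1.98) and ITGA3 (-1.17) were higher in 2102Ep siSOX2, and LAMA1 (1.32) and ITGA6 (1.29) in NTera-2 siSOX2. Each side was 7.41% of the list, against 3.03% and 4.61% of all genes.

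Of 38 other cadherins and protocadherins, 4 were higher in 2102Ep siSOX2 (10.5% against 3.03% of all genes), including PCDH10 (-2.41) and PCDH18 (-2.28). In NTera-2 siSOX2 2 were higher (5.26% against 4.61%), CDH9 and FAT3 (2.06). Of 37 collagens, COL1A2 (-1.22) and COL24A1 (1.15, but 0.988 without NTera-2 siSOX2 replicate 3) were called, 5.41% against 7.65% of all genes. Of 37 MAGE, GAGE, PAGE, XAGE and SSX genes, MAGEB2 (-1.40) and MAGEH1 (-1.08, but -0.994 without NTera-2 siSOX2 replicate 1) were called, again 5.41%. Of 25 sterol and fatty acid genes, CYP51A1 (1.29, but 0.575 by its second probe set) and INSIG1 (1.12, but 0.997 on a further quantile normalization) were higher in NTera-2 siSOX2, and NSDHL (-1.21) in 2102Ep siSOX2. Of 340 olfactory receptor genes, 7 were higher in 2102Ep siSOX2 (2.06% against 3.03% of all genes) and 0 in NTera-2 siSOX2, and OR51B4 (-2.19) was the furthest apart. All 7 lie on chromosome 11, but how many of the 340 lie there is not given, so this is no sign of a regional difference. Of 61 ribosomal protein genes 1 was higher in NTera-2 siSOX2 and 2 in 2102Ep siSOX2, RPL39L (1.16), RPL10L (-1.11) and RPL10 (-1.10, but -0.873 without NTera-2 siSOX2 replicate 2), which have close copies, so that the gene read by each probe set is uncertain. Of 30 imprinted genes, TFPI2 (-1.82) and GRB10 (1.20) were the remaining calls beside MEG3, PEG10 and SGCE.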
